A study of Mus musculus and Homo sapiens
Mus musculus with 12 samples.

Results

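The 10 genes described here encode receptors for acetylcholine. Chrm1, Chrm2, Chrm3, Chrm4 and Chrm5 encode the muscarinic receptors. Chrna3, Chrna4, Chrna5, Chrna7 and Chrnb2 encode subunits of the nicotinic receptors. They were taken by symbol from the 34496 genes listed in 7 mouse brain libraries, and all 10 were found there. The libraries were made by snHH-seq, a droplet method that primes total RNA of single nuclei at random positions and counts cDNA fragments by a unique fragment identifier (UFI). Brain tissue came from male wild-type C57BL/6J mice of 6 to 8 weeks, which carried no transgene and received no agent. The libraries formed 4 groups by tissue storage and by reverse transcription primer. These were No_index from frozen tissue (2 libraries), Index from frozen tissue (2 libraries), No_index from fresh tissue (2 libraries) and Index from fresh tissue (1 library). In Index libraries the primer itself carried a barcode specific to the reverse transcription well (preindex), and in No_index libraries it did not. The labels do not tie libraries to separate animals, so every p-value here measures the spread between libraries, which may be technical.

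Muscarinic receptors are single proteins that signal through G proteins. Chrm1, Chrm3 and Chrm5 couple mainly to Gq, which raises calcium through phospholipase C, while Chrm2 and Chrm4 couple mainly to Gi/o, which lowers cyclic AMP and opens inward rectifier potassium channels. Nicotinic receptors are pentameric cation channels opened directly by acetylcholine. In brain the main forms are the high-affinity receptor built from Chrna4 and Chrnb2 subunits, to which Chrna5 can be added, and the fast, calcium-permeable receptor built from Chrna7 alone, while Chrna3 pairs with Chrnb4 in the medial habenula and in autonomic ganglia.

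The 7 libraries held 11198 nuclei, with 700 to 3100 nuclei, 8605214 to 42439731 UFIs in total and a median of 9012 to 27543 UFIs per nucleus. Nuclei were grouped by the likeness of their RNA to lists of marker genes, none of which was a receptor gene. This placed 6215 nuclei, and 4983 (44.5%) stayed without a group. A group name below, such as thalamic, means thalamic-like by these markers. In hippocampal CA and in D1-like striatal nuclei, 4 of 6 markers stood at least 2-fold above all other nuclei. It was 5 of 6 in upper layer and Rorb-layer nuclei and 5 of 7 in layer 5. In the other groups all markers did. A total of 458 nuclei resembled kidney tubule, all from the 2 Index_frozen libraries, and 20 resembled liver, all from Index_fresh. They entered no comparison of brain groups. Values over whole libraries include them unless stated otherwise. Of 11198 nuclei, 64 carried a barcode that also occurred in another library. Levels are given as UFIs per 1000000 UFIs (CPM), summed over the nuclei of a group in a library. A group's mean and SD run over the libraries with at least 10 nuclei of it.

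Chrm3 had the most UFIs of the 10 genes and Chrm5 the fewest. Chrm3 had 122510 UFIs and at least 1 UFI in 69.3% of nuclei. Its level over whole libraries was 658 ± 72.8 CPM (SD, n = 7). Chrm2 followed with 110.1 ± 15.01 CPM and Chrna7 with 103 ± 5.24 CPM. Chrm1 had 51.5 ± 6.01 CPM, Chrna4 26.8 ± 6.62 CPM and Chrnb2 19.9 ± 6.35 CPM. The other 4 genes lay below 5 CPM, with Chrm4 at 3.76 ± 0.570 CPM, Chrna5 at 2.93 ± 0.387 CPM, Chrna3 at 1.14 ± 0.283 CPM and Chrm5 at 0.423 ± 0.228 CPM. Chrm5 rested on 73 UFIs in 61 nuclei. Within a library such a level does not tell fewer nuclei of a type from less RNA per nucleus, which the groups of nuclei below separate.

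**Figure D1:**
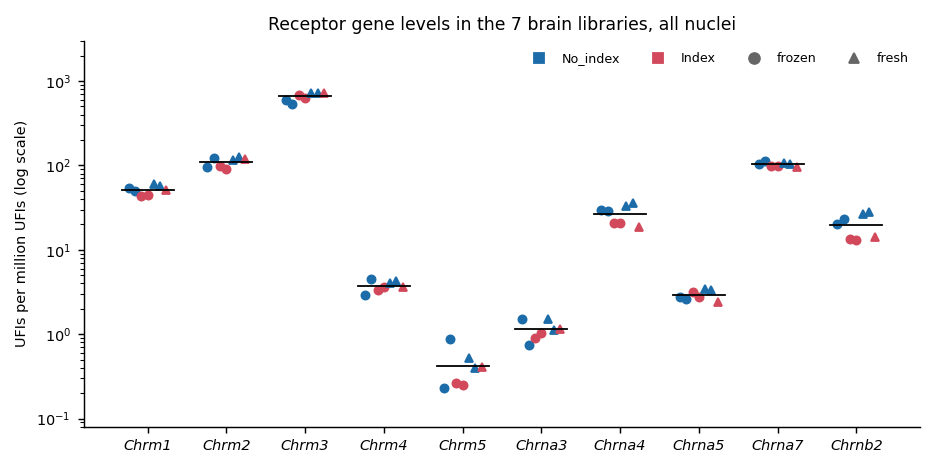
Level of each of the 10 receptor genes over all nuclei of a library, in CPM on a log axis, with 1 point for each of the 7 libraries by storage and primer. Chrm3 lies between 531 and 719 CPM and Chrm5 below 1 CPM in all 7 libraries. Only for Chrna4, Chrna7 and Chrnb2 do all 3 Index libraries lie below all 4 No_index libraries. The share of all genes that separate in this way was not computed. The levels include the nuclei resembling kidney tubule, all from Index_frozen libraries, whose part in this separation was not tested.

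UFIs were counted over whole genes with introns, so a long gene offers more sites to a random primer. Chrm3 spans 485 kb on the minus strand of chromosome 13 (GRCm38, chr13:9875486-10360847) and Chrm2 140.3 kb on the plus strand of chromosome 6 (chr6:36388084-36528414). Chrm4, by contrast, is annotated as a single exon of 1.44 kb on chromosome 2 (chr2:91927249-91928688, plus strand). Chrm5 is annotated as a single exon of 1599 bp on the minus strand of the same chromosome (chr2:112479171-112480769). Whether RNA of these 2 genes extends beyond the annotated exon, where it would not be counted, was not tested. Chrm1 spans 19.8 kb on the plus strand of chromosome 19 (chr19:8663789-8683587). Among the subunit genes, Chrna4 spans 25.2 kb (chr2:181018380-181043546, minus strand), Chrna7 114 kb (chr7:63098692-63212569, minus strand) and Chrnb2 18.4 kb (chr3:89746195-89764632, minus strand). Chrna3 (chr9:55010111-55026562, minus strand, 16.5 kb) and Chrna5 (chr9:54980880-55007779, plus strand, 26.9 kb) are neighbours on chromosome 9 and lie on opposite strands.

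Per kb of annotated gene the order of the levels was different. The values of Chrm4 and Chrm5 rest on models of a single exon, and their place depends on those lengths. Chrm4, at 2.61 ± 0.396 CPM per kb (SD, n = 7), and Chrm1, at 2.60 ± 0.303 CPM per kb, lay at the top with overlapping values. Chrm3 had 1.36 ± 0.150 CPM per kb, Chrnb2 1.08 ± 0.344, Chrna4 1.07 ± 0.263, Chrna7 0.904 ± 0.0460 and Chrm2 0.784 ± 0.107 CPM per kb. Chrm5 had 0.265 ± 0.143 CPM per kb, Chrna5 0.109 ± 0.0144 and Chrna3 0.0693 ± 0.0172 CPM per kb. Chrnb2 shares 7252 bp, 39.3% of its length, with Adar, a gene for an RNA-editing enzyme on the opposite strand. The study describes UFI quantification as strand-specific, but the strand setting used in counting these tables is not stated, so a part of Adar RNA in the Chrnb2 values was not tested. In the kidney tubule nuclei, where Adar stood at 39.3 CPM, Chrnb2 had 1.18 CPM (5 UFIs).

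Chrm1, Chrm2, Chrm3, Chrna4, Chrna7 and Chrnb2 had a mean above 5 CPM in every ordered group of nuclei, and the other 4 genes lay below 5 CPM in most. A total of 15 groups with at least 5 libraries were ordered by level for each gene. In an exact sign-flip permutation test over libraries (two-sided), 0 of 140 pairs of neighbours in these orders passed an adjusted p of 0.05, and 11 had an unadjusted p under 0.05. The smallest unadjusted p that 7 libraries allow is 0.0156, which left little room for any of 140 pairs to pass after adjustment. The orders are therefore descriptions, and this test cannot decide whether neighbours in them differ.

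**Figure D2:**
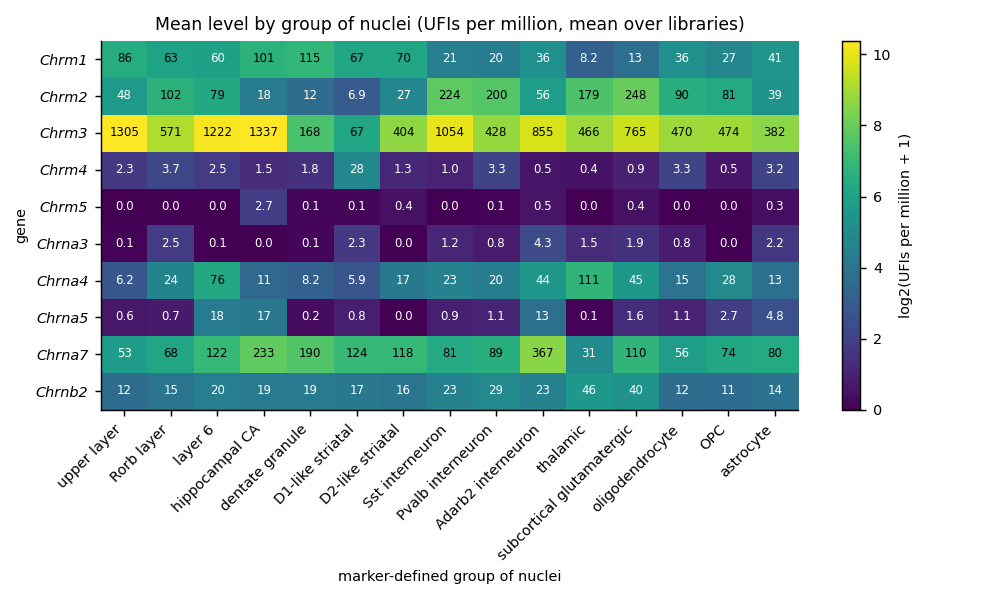
Mean level of each receptor gene in the 15 groups of nuclei, printed in CPM and coloured by log2(CPM + 1), with groups and genes on the axes. Chrm4 is highest in D1-like striatal nuclei, Chrna4 and Chrnb2 in thalamic nuclei, Chrna7 in Adarb2 interneurons and Chrm1 in dentate granule nuclei.

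Of the Gq-coupled receptors, Chrm1 was highest in the hippocampus. The levels were 115 ± 15.3 CPM in dentate granule nuclei, 101 ± 14.7 CPM in CA nuclei and 85.7 ± 15.1 CPM in upper layer cortical nuclei (n = 7, 7 and 6 libraries). The lowest level was that of thalamic nuclei, at 8.17 CPM. Chrm3 was highest in hippocampal CA nuclei (1337 ± 235 CPM), upper layer nuclei (1305 ± 162 CPM) and layer 6 nuclei (1222 ± 138 CPM), and lowest in dentate granule nuclei (168 ± 64.2 CPM) and D1-like striatal nuclei (67.2 ± 14.9 CPM). Dentate granule nuclei thus ranked at the top for Chrm1 and at place 14 of 15 for Chrm3, while CA nuclei ranked high for both. The step in Chrm3 from astrocytes, at place 13, down to dentate granule nuclei had the same sign in 7 of 7 libraries (exact permutation p = 0.0156, adjusted p = 0.547). Chrm5 reached 2.66 ± 3.07 CPM in CA nuclei, with an SD larger than its mean, and under 0.5 CPM in the other 14 groups.

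Chrm2, which couples to Gi/o, was highest in subcortical glutamatergic nuclei (248 ± 107 CPM, n = 5), Sst interneurons (224 ± 105 CPM, n = 7), Pvalb interneurons (200 ± 51.7 CPM) and thalamic nuclei (179 ± 23.4 CPM). Among these 4 groups, neighbours in the order had an unadjusted exact permutation p of 0.28 to 0.94. The top place moved with the setting. Without No_index_fresh 1, which had 434 CPM in subcortical glutamatergic nuclei, Sst interneurons were highest (239 CPM). With Leiden clusters, none of which took the subcortical glutamatergic or Sst name, Pvalb interneurons were highest (184 CPM). Chrm2 was lowest in D1-like striatal nuclei, at 6.91 CPM. Chrm4 showed a single peak, at 27.8 ± 4.56 CPM in D1-like striatal nuclei, against 3.74 ± 1.67 CPM in the next group, Rorb-layer cortical nuclei.

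Of the nicotinic subunits, Chrna4 was highest in thalamic nuclei (111 ± 22.6 CPM), followed by layer 6 nuclei (75.7 ± 23.4 CPM). Its partner Chrnb2 had 45.7 ± 14.3 CPM in thalamic nuclei and 39.9 ± 14.5 CPM in subcortical glutamatergic nuclei. Chrna5, the accessory subunit, had 18.5 ± 4.78 CPM in layer 6, 16.8 ± 6.32 CPM in CA nuclei and 13.2 ± 5.04 CPM in Adarb2 interneurons, and under 5 CPM elsewhere. In thalamic nuclei Chrna5 had 1 UFI in all 360 nuclei. Chrna7 reached 367 ± 89.6 CPM in Adarb2 interneurons, against 233 ± 50.0 CPM in CA nuclei and 190 ± 31.6 CPM in dentate granule nuclei. The step from Adarb2 interneurons to CA nuclei had the same sign in 7 of 7 libraries (exact permutation p = 0.0156, adjusted p = 0.547).

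Shares of nuclei with a UFI followed depth, so each nucleus was thinned to 3000 UFIs, which left out 3 nuclei. After thinning, Chrm3 was seen in 86.2% ± 3.4 of CA nuclei and Chrm4 in 7.95% ± 3.3 of D1-like nuclei (SD over libraries). Without thinning the shares were 95.5% and 34.6%. Chrna4 was seen in 29.9% of thinned thalamic nuclei and Chrnb2 in 13.5%, against 69.8% and 52.6% at full depth. For comparison, in the kidney tubule nuclei of the 2 Index_frozen libraries, with a median of 8757 UFIs, 0 of 458 had a Chrm1 UFI, which allows a share of nuclei with a UFI of up to 0.655%. Thinned to 3000 UFIs, Chrm2 was seen in 0.392% of them, Chrm3 in 10.4% and Chrna4 in 14.98%, against 0.638%, 20.8% and 35.3% at full depth (means of the 2 libraries). Thalamic nuclei had a median of 15521 UFIs.

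Within the striatum, 4 of 7 receptor genes tested differed between D1-like nuclei (674, marked by Drd1 and its companions) and D2-like nuclei (546, marked by Drd2). D1-like nuclei carry the direct pathway to the output nuclei of the basal ganglia and D2-like nuclei the indirect pathway. Over all genes tested, 6.63% were called in this comparison. Ranges over libraries were compared for the receptors alone, so here and below no share of all genes without overlap stands beside them. Chrm4 had 20.8 to 35.0 CPM in D1-like nuclei with a median of 27.7 CPM, and 0 to 3.13 CPM in D2-like nuclei with a median of 1.10 CPM. It was higher in D1-like nuclei in 7 of 7 libraries with no overlap, by 4.25 ± 0.30 on the log2 scale (SE; edgeR adjusted p = 4.8e-09). Chrm4 met the low-count filter through the D1-like nuclei, so the direction of its call was largely set before the test. The call held in all 12 alternatives, among them a fit without that filter, but these reuse the same libraries and are not independent support.

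Chrm3 showed the opposite order. It had 50.3 to 86.7 CPM in D1-like nuclei with a median of 61.3 CPM, and 267 to 565 CPM in D2-like nuclei with a median of 390 CPM. The ranges did not overlap, and the level was lower in D1-like nuclei by a log2 change of -2.64 ± 0.13 (edgeR adjusted p = 1.4e-11). Chrm2 was lower in D1-like nuclei in 6 of 7 libraries, with medians of 6.77 and 25.2 CPM and overlapping ranges (log2 change -1.51 ± 0.32, edgeR adjusted p = 0.0045). Chrna4 was lower in 7 of 7 libraries, with medians of 5.05 and 19.1 CPM and overlapping ranges (log2 change -1.58 ± 0.30, edgeR adjusted p = 0.0016). Chrm1 (-0.08 ± 0.11), Chrna7 (0.04 ± 0.10) and Chrnb2 (0.01 ± 0.21) did not pass the test. With nuclei grouped by Leiden clusters the change in Chrm2 was -0.72 and did not pass (edgeR adjusted p = 0.23), and the other 3 calls held. Chrm1 had medians of 67.9 and 65.3 CPM.

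**Figure D3:**
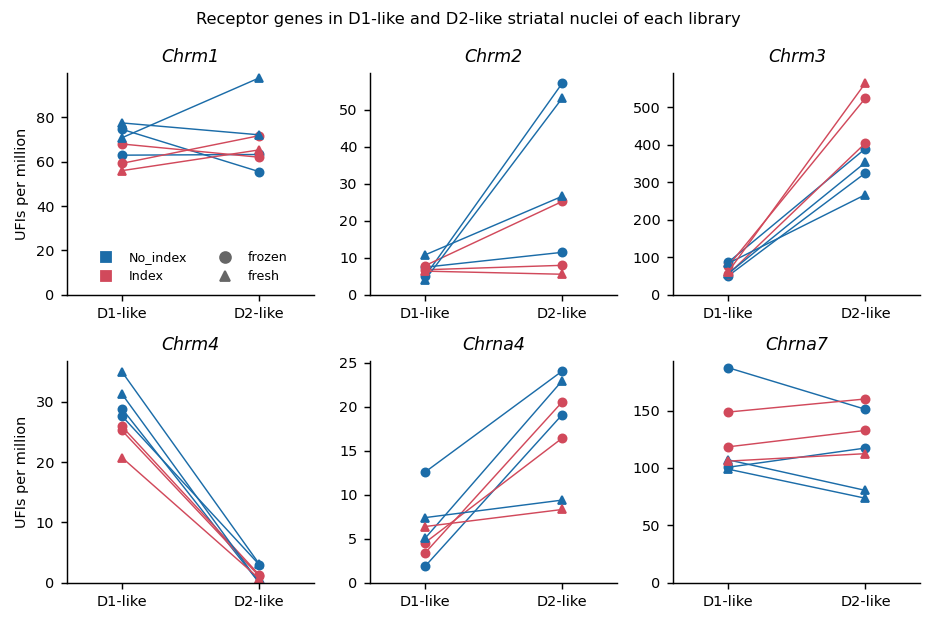
Level of 6 receptor genes in D1-like and D2-like striatal nuclei, in CPM, with 1 point per library (colour for primer, shape for storage) and lines joining the values of the same library. Chrm4 is higher in D1-like nuclei in 7 of 7 libraries, and Chrm3 is higher in D2-like nuclei in 7 of 7.

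Against cortical glutamatergic nuclei (1176), striatal projection nuclei (1302) differed in 6 of 8 receptor genes tested, where 49.2% of all genes were called. Chrm4 was higher in the striatum by 2.51 ± 0.18 on the log2 scale, with 12.8 to 21.0 CPM against 1.68 to 4.24 CPM and no overlap (edgeR adjusted p = 2.5e-09). With a cortical median of 2.83 CPM, Chrm4 met the low-count filter through the striatal nuclei, which largely set the direction of its call. Chrna7 was higher by 0.56 ± 0.10 in 7 of 7 libraries with overlapping ranges (edgeR adjusted p = 0.00016). Chrm2, Chrm3, Chrna4 and Chrna5 were lower, with log2 changes of -2.41, -2.29, -1.68 and -3.40, and none of their ranges overlapped. Chrna5, at 0 to 0.879 CPM in the striatum, met the low-count filter through the cortical nuclei, which largely set the direction of its call. Chrm3, for example, had a median of 192 CPM in the striatum and 1030 CPM in the cortex. Chrm1 (0.04 ± 0.08) and Chrnb2 (0.00 ± 0.15) did not pass the test.

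Within the cortex, the nicotinic subunits followed the layers. In deep layer nuclei (layers 5 and 6), against upper layer and Rorb-layer nuclei, 5 of 7 receptor genes tested passed the test, where 26.3% of all genes were called. Chrna5 had 8.32 to 19.6 CPM in deep nuclei with a median of 13.3 CPM. In upper nuclei it had 0 to 2.12 CPM with a median of 0, and the ranges did not overlap (log2 change 4.34 ± 0.40, edgeR adjusted p = 1.4e-07). Chrna5 met the low-count filter through the deep nuclei, so the direction of its call was largely set before the test. The call held in all 12 alternatives, among them a fit without that filter, but these reuse the same libraries and are not independent support. Chrna4 had 41.3 to 86.3 CPM in deep nuclei with a median of 61.0 CPM, and 3.09 to 26.5 CPM in upper nuclei with a median of 10.2 CPM, again without overlap (2.26 ± 0.16, edgeR adjusted p = 6.1e-09).

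Chrna7 (0.74 ± 0.13, edgeR adjusted p = 0.0002) and Chrnb2 (0.61 ± 0.14, edgeR adjusted p = 0.003) were also higher in deep nuclei, each in 7 of 7 libraries with overlapping ranges. With Leiden clusters in place of marker scores the change in Chrna7 was 0.35. Chrm1 was the single gene lower in deep nuclei, by a log2 change of -0.30 ± 0.10 in 6 of 7 libraries (edgeR adjusted p = 0.041). This call was lost in 7 of 12 alternatives, with DESeq2 and without any single library but Index_frozen 2 (adjusted p of 0.050 to 0.12). The median levels of Chrm2 were 72.1 and 70.8 CPM and those of Chrm3 1124 and 1027 CPM, and neither passed the test. The upper nuclei were not uniform in Chrm3, with 1305 ± 162 CPM in upper layer and 571 ± 117 CPM in Rorb-layer nuclei, a difference that was not tested. Layer 5 nuclei were few (107). Pooled, they had 1.28 CPM of Chrna5 (4 UFIs, exact Poisson interval 0.348 to 3.27, which covers counting error only) and 35.2 CPM of Chrna4 (28.9 to 42.4), both below the layer 6 means above.

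Thalamic nuclei (360), the main relay cells to the cortex, differed from cortical glutamatergic nuclei in 6 of 6 receptor genes tested, where 42.7% of all genes were called. Of the 10 receptors, 4 had counts too low to be tested here. Chrna4 had 81.3 to 139 CPM with a median of 108 CPM, against 23.9 to 49.9 CPM with a median of 31.9 CPM in the cortex (1.59 ± 0.12, edgeR adjusted p = 4.0e-08). Chrnb2 had a median of 45.8 CPM against 16.4 CPM (1.49 ± 0.18, edgeR adjusted p = 7.6e-06). Chrm2 was higher too, with 153 to 210 CPM against 65.0 to 95.7 CPM (1.12 ± 0.10, edgeR adjusted p = 2.4e-07), a change that was 0.65 with Leiden clusters. The ranges of these 3 genes did not overlap between the groups.

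Chrm1, Chrm3 and Chrna7 were lower in thalamic nuclei, with no overlap. Chrm1 had a median of 6.54 CPM against 75.5 CPM (log2 change -3.33 ± 0.23, edgeR adjusted p = 1.2e-08). At that thalamic level Chrm1 met the low-count filter through the cortical nuclei, which largely set the direction of its call. Chrm3 had a median of 433 CPM against 1030 CPM (-1.21 ± 0.10) and Chrna7 31.7 CPM against 84.1 CPM (-1.37 ± 0.15). Both subunits of the high-affinity nicotinic receptor and Chrm2 were thus higher in these nuclei, and Chrm1, Chrm3 and Chrna7 lower, while Chrm5 was at 0 in both groups in all 7 libraries. Adar, which overlaps Chrnb2, stood at 170 ± 26.7 CPM in thalamic and 139 ± 20.4 CPM in cortical nuclei and did not pass the test (log2 change 0.24 ± 0.11, edgeR adjusted p = 0.094). Its part in the Chrnb2 difference was not tested.

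**Figure D4:**
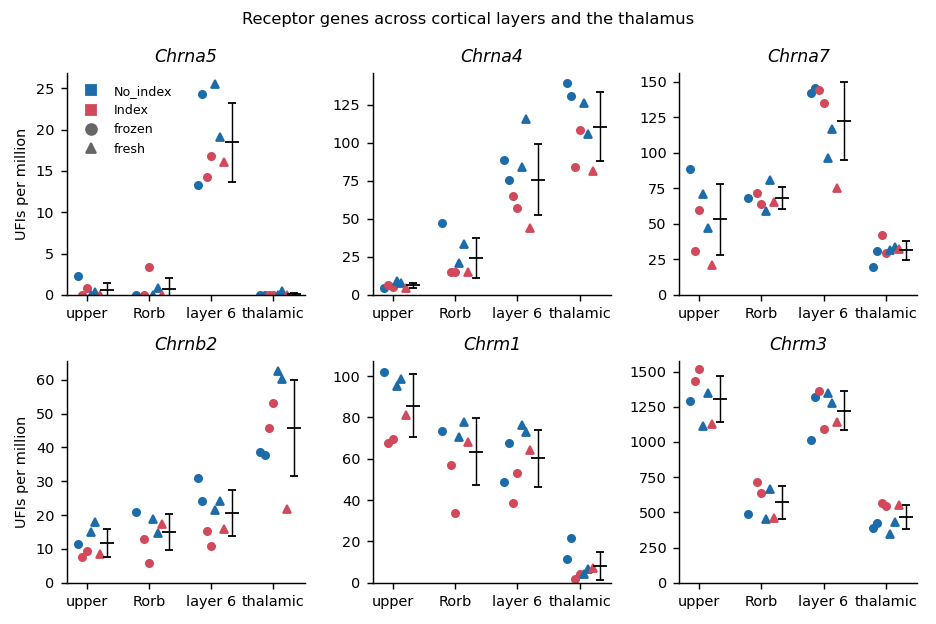
Level of 6 receptor genes in upper layer, Rorb-layer, layer 6 and thalamic nuclei, in CPM, with 1 point per library (colour for primer, shape for storage) and the mean with SD as a bar. Chrna5 is high in layer 6 alone, with a mean of 18.5 CPM, and Chrna4 and Chrnb2 have their highest means in thalamic nuclei, at 111 and 45.7 CPM.

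Interneurons marked by Lhx6, which hold the Sst and Pvalb groups (363 and 623 nuclei), differed from cortical glutamatergic nuclei in 6 of 7 receptor genes tested, where 48.1% of all genes were called. Chrm2 had 120 to 268 CPM with a median of 233 CPM, against a median of 76.6 CPM (1.21 ± 0.12, edgeR adjusted p = 3.8e-07), a change that was 0.72 with Leiden clusters. Chrnb2 was higher in 7 of 7 libraries with overlapping ranges (0.59 ± 0.12, edgeR adjusted p = 0.00049). Chrm1 had 16.8 to 26.3 CPM, against 51.6 to 81.0 CPM (log2 change -1.87 ± 0.09, edgeR adjusted p = 8.6e-11). Chrm3 (-0.77), Chrna4 (-0.98) and Chrna5 (-2.56) were also lower (Chrna4 by -1.72 with Leiden clusters), and Chrna7 did not pass the test (-0.14 ± 0.11, edgeR adjusted p = 0.30). Chrna5, at 0 to 2.07 CPM in these interneurons, met the low-count filter through the cortical nuclei, which largely set the direction of its call. Sst and Pvalb nuclei were unlike in Chrm3, at 1054 ± 161 and 428 ± 164 CPM, a difference between groups far apart in the order that was not tested. In Adarb2 interneurons (242 nuclei), which come from another developmental origin, Chrm2 stood lower, at 56.3 CPM.

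Dentate granule nuclei (421) differed from cortical glutamatergic nuclei in 5 of 6 receptor genes tested, where 43.5% of all genes were called. Chrm1 was higher in 7 of 7 libraries, with 94.3 to 139 CPM against 51.6 to 81.0 CPM (0.71 ± 0.09, edgeR adjusted p = 1.5e-05). Chrna7 had 154 to 241 CPM against 52.4 to 116 CPM (1.19 ± 0.12, edgeR adjusted p = 6.6e-07). Chrm2, Chrm3 and Chrna4 were lower, with log2 changes of -3.04 ± 0.25, -2.72 ± 0.16 and -2.30 ± 0.27. With Leiden clusters the change in Chrm3 was -4.55, and dentate granule nuclei, at 44.3 CPM, became its lowest group. None of these 5 genes had overlapping ranges, and the share of all genes without overlap was not computed. Chrnb2 did not pass the test (0.15 ± 0.16).

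Glia, pooled from oligodendrocytes, their precursors (OPC) and astrocytes, had lower levels than cortical glutamatergic nuclei of 5 of 6 receptor genes tested, where 46.8% of all genes were called, 22.8% as lower. Chrm3 had 323 to 598 CPM with a median of 441 CPM, against 935 to 1174 CPM in cortical nuclei (log2 change -1.38 ± 0.13, edgeR adjusted p = 6.2e-07). Chrm1 (-1.07 ± 0.11), Chrna4 (-1.23 ± 0.17), Chrna7 (-0.41 ± 0.16) and Chrnb2 (-0.61 ± 0.21) were lower as well, and Chrm2 was not past the threshold (-0.35 ± 0.15, edgeR adjusted p = 0.078). Chrm2 did pass, as lower, in 4 of 12 alternatives, and its log2 change ran from -0.91 to -0.17 over the 12. Chrna7 lost its call in 7 of 12 alternatives (DESeq2, stricter scores, and without Index_frozen 1, Index_frozen 2, No_index_frozen 1, No_index_frozen 2 or No_index_fresh 1) and Chrnb2 in 5 of 12 (DESeq2, and without Index_fresh 1, Index_frozen 1, No_index_fresh 1 or No_index_fresh 2). The calls of Chrm1, Chrm3 and Chrna4 held in all 12.

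The glial groups also held RNA of neuronal marker genes. The 6 neuronal markers Rbfox3, Snap25, Syt1, Grin2b, Meg3 and Celf4 were all present in glia and summed to 5403 to 8103 CPM over the 7 libraries, against 11901 to 13281 CPM in cortical glutamatergic nuclei and 58.0 to 114 CPM in kidney tubule nuclei. The part of neuronal RNA in the receptor levels of glia was not tested.

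Groups of few nuclei were pooled over libraries and described with exact Poisson intervals, which cover counting error only, and without a test. In 24 cholinergic nuclei, marked by the transmitter genes Chat and Slc5a7, Chrm2 stood at 608 CPM (546 to 675, 352 UFIs) and was seen in 24 of 24 nuclei. This was the highest level of Chrm2 in any group. The other receptors there were Chrna7 at 180 CPM (147 to 218), Chrm3 at 102 CPM (77.6 to 131), Chrnb2 at 22.5 CPM and Chrm4 at 6.91 CPM (4 UFIs in 4 nuclei). Chrm1 had 1 UFI, and Chrm5 and Chrna5 had 0, which allows up to 5.18 CPM.

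In 18 medial habenula nuclei, Chrna3 stood at 123 CPM (85.5 to 172, 34 UFIs in 11 nuclei), whereas no group in the order of 15 exceeded 4.33 CPM. Chrnb4, its usual partner, was also highest there, at 87.1 CPM (24 UFIs), while Chrna5, the gene next to Chrna3, had 0 UFIs, which allows up to 10.9 CPM. In 10 dopamine nuclei, Chrna4 and Chrnb2 stood at 81.9 CPM each (50.7 to 125, 21 UFIs each). Chrnb3 and Chrna6, subunits known for dopamine neurons, were at 215 and 74.1 CPM (55 and 19 UFIs). Chrm5 had 3 UFIs in 2 dopamine nuclei, 11.7 CPM with an interval of 2.41 to 34.2 CPM.

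Frozen and fresh tissue were compared to see whether archived brain gives the same receptor readout. None of the 10 receptors passed the test over all nuclei, where 0.207% of all genes were called (edgeR, with primer in the model). The model takes the storage change to be alike with both primers. In the interaction fit given below this did not hold for part of all genes, though Index_fresh had 1 library. An unadjusted p under 0.05 was met by 4 receptors. For unadjusted counts here and below, the share of all genes at the same cutoff is not given. By DESeq2 1 was called, Chrm3. Over the alternatives run, with all libraries kept, calls over all genes ranged from 0 to 1937, and those of DESeq2 by itself are not given here. Chrm3 had 531 to 691 CPM in the 4 frozen and 714 to 719 CPM in the 3 fresh libraries. The frozen values include the nuclei resembling kidney tubule, all from Index_frozen, in which Chrm3 was far lower. Whether the ranges stay apart without those nuclei was not tested. In cortical glutamatergic, striatal projection and thalamic nuclei 0 receptors passed as well, where 0.00806%, 0.339% and 0.0218% of genes were called. The unadjusted counts under 0.05 were 1, 2 and 0, and by DESeq2 1, 0 and 0 were called. The gene nearest to the threshold was Chrna7 in cortical nuclei. It had 103, 116, 84.1 and 88.8 CPM in the frozen and 79.5, 78.5 and 52.4 CPM in the fresh libraries, a log2 change of 0.63 for frozen against fresh that did not pass (edgeR adjusted p = 0.096).

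The primer comparison asked whether a barcode in the reverse transcription primer alters the measured levels. The study's random primer is shown with its poly-T counterpart, because both share the adaptor and the barcode and differ in the 3′ tail that anneals to RNA. Sequences run 5′ to 3′. The capital N mark the 10 positions of the well-specific barcode, and the lower case n of the random primer mark 7 random bases.
snHH-seq_RT_polyT: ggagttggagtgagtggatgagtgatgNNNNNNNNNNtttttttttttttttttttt
snHH-seq_RT_random: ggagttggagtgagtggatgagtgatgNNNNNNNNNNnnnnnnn

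Library titles name the primer used here as the grouping. For 4 of the 7 libraries another label names the other primer. The deposited cell barcodes were 40 bases long in libraries titled Index and 30 bases in those titled No_index, which is the difference of 10 bases that the primer's barcode adds.

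Chrna4 and Chrnb2 were lower in Index libraries, and the other 8 receptors did not pass the test, where 15.8% of all genes were called, 7.88% as lower. Chrnb2 had 20.5, 23.2, 26.4 and 28.2 CPM in the No_index and 13.5, 13.0 and 14.3 CPM in the Index libraries. The ranges did not overlap (log2 change -0.73 ± 0.07, edgeR adjusted p = 0.0015). Chrna4 had 29.9, 29.1, 32.8 and 35.5 CPM in the No_index and 20.9, 20.9 and 18.6 CPM in the Index libraries, again without overlap (-0.57 ± 0.08, edgeR adjusted p = 0.0045). Chrm3 did not pass (0.22 ± 0.07, edgeR adjusted p = 0.062), but did once the nuclei resembling kidney or liver were left out (0.34 ± 0.07, edgeR adjusted p = 0.010). Without those nuclei Chrna4 changed by -0.66 ± 0.06 and Chrnb2 by -0.62 ± 0.08.

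The makeup of the libraries differed with primer as well. Of 207 cerebellar granule nuclei 1 came from an Index library, and of 97 subcortical glutamatergic nuclei, which rank next to the top for Chrnb2 at 39.9 CPM, 26 did. Thalamic nuclei, highest for Chrna4 and Chrnb2, numbered 20 of 700, 33 of 800, 47 of 1000 and 65 of 1300 in No_index libraries. In Index libraries they numbered 46 of 2300, 47 of 1998 and 102 of 3100. The part of this in the whole-library levels was not tested.

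Within groups of nuclei the primer difference was seen in part. In striatal projection nuclei 2 of 8 receptors passed, where 4.71% of all genes were called. Chrm3 had 170, 190, 158 and 192 CPM in No_index and 208, 273 and 270 CPM in Index libraries (0.63 ± 0.11, edgeR adjusted p = 0.0016). Chrnb2 had 16.8, 21.6, 16.9 and 27.5 CPM in No_index and 10.5, 10.0 and 9.01 CPM in Index libraries (-0.99 ± 0.22, edgeR adjusted p = 0.0096). Neither passed without the Index_fresh 1 library, which is the only Index library of fresh tissue (edgeR adjusted p = 0.083 for Chrm3 and 0.18 for Chrnb2), and Chrnb2 was also lost without No_index_fresh 2 or No_index_frozen 2 (edgeR adjusted p = 0.050 and 0.055).

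In cortical nuclei 0 of 8 receptors passed, where 2.5% of genes were called, and in thalamic nuclei 0 of 6, where 0.251% were called (edgeR; 2 unadjusted p under 0.05 in each). In thalamic nuclei Chrm3 again had the larger value in Index libraries (0.58 ± 0.13, edgeR adjusted p = 0.085). DESeq2 called 0 receptors in cortical nuclei and 1, Chrm3, in thalamic nuclei. The interaction fit that follows was made over all nuclei alone. It kept the nuclei resembling kidney tubule, all from Index_frozen, and those resembling liver, all from Index_fresh. Their part in it was not tested. Whether the primer difference depended on storage was tested with an interaction term, in which 0 of 10 receptors passed, where 16.4% of all genes did (edgeR; 2 receptors had an unadjusted p under 0.05).

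The primer difference moved with gene length over all genes. The median log2 change for Index against No_index was -0.17 for 4714 genes under 10 kb, -0.046 for genes of 10 to 30 kb, 0.027 for 30 to 100 kb, 0.088 for 100 to 300 kb and 0.14 for 588 genes of 300 kb or more. Chrna4 and Chrnb2 belong to the class of 10 to 30 kb, and Chrm3 to the longest. Both short genes lay further from 0 than the median of their class. Adar, whose RNA overlaps Chrnb2, did not pass the primer test (-0.08 ± 0.04, edgeR adjusted p = 0.19). The part of gene length in the receptor differences was not tested.

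**Figure D5:**
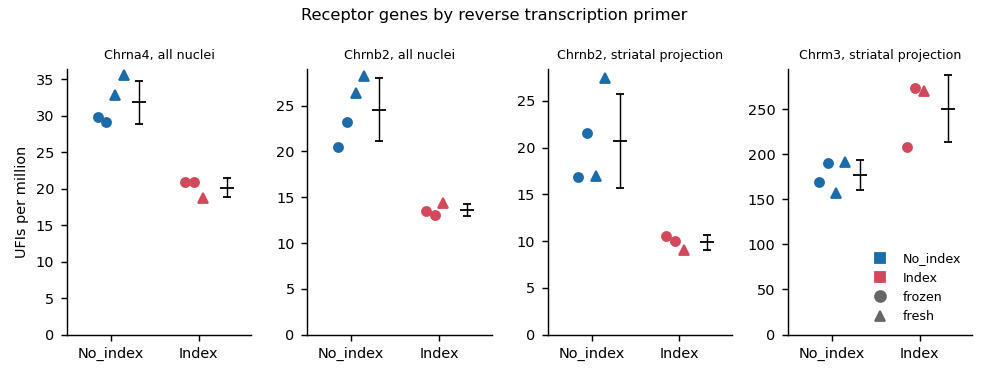
Level of Chrna4 and Chrnb2 over all nuclei and of Chrnb2 and Chrm3 in striatal projection nuclei, in CPM, with 1 point per library (shape for storage) and the mean with SD as a bar, for No_index and Index libraries. Chrnb2 lies at 13.0 to 14.3 CPM in the 3 Index libraries and at 20.5 to 28.2 CPM in the 4 No_index libraries over all nuclei.

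A list of 51 other cholinergic genes was described beside the receptors, covering other subunits, transmitter handling, receptor partners and signalling; 47 of them were used in groups of nuclei, after genes that served as markers were left out. Between D1-like and D2-like nuclei 28 could be tested, and 4 were higher and 2 lower in D1-like nuclei, where 6.63% of all genes were called, with a median log2 change of 0.046 against 0.0057 over all genes. Lypd1, a brake on nicotinic receptors (0.45 ± 0.12), Gnai1, a Gi subunit (0.75 ± 0.14), Prkca, a protein kinase C (0.81 ± 0.08), and Kcnq5, a potassium channel closed by Gq-coupled muscarinic receptors (0.28 ± 0.06), were higher. Prima1, the membrane anchor of acetylcholinesterase (-0.46 ± 0.12), and Gnao1, the Go subunit (-0.37 ± 0.05), were lower. All 6 passed the edgeR test over all genes.

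In thalamic nuclei 8 of 28 genes were higher and 11 lower than in cortical nuclei, where 42.7% of all genes were called. Ache, the enzyme that breaks down acetylcholine, was higher by 1.61 ± 0.18 and Plcb4, a phospholipase C, by 2.13 ± 0.14, while its paralog Plcb1 changed by -2.65 ± 0.19. In deep against upper layer nuclei 6 of 28 were higher and 6 lower, against 26.3% of all genes called. Those higher included Ache (1.15 ± 0.22), Lynx1 (1.06 ± 0.16) and Lypd6b (1.33 ± 0.18). Lynx1 and Lypd6b encode small proteins that bind nicotinic receptors, and Prkca (-1.59 ± 0.10) was among the lower. In Lhx6 interneurons 10 of 29 were higher and 13 lower, against 48.1% of all genes called, with Lypd6 at 2.99 ± 0.14 and Lypd6b at 2.15 ± 0.15 among the higher and Rgs4 at -1.93 ± 0.13 and Kcnq5 at -1.65 ± 0.09 among the lower. In striatal against cortical nuclei 10 of 30 were higher and 10 lower, against 49.2% of all genes called. Prima1 was higher by 5.70 ± 0.18 and Adcy5, the cyclase that Chrm4 inhibits, by 4.53 ± 0.08. Kcnj3 (-2.46 ± 0.13) and Kcnj6 (-3.38 ± 0.18), potassium channels opened by Gi-coupled receptors, were lower.

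In dentate granule nuclei 5 of 28 were higher and 14 lower, where 43.5% of all genes were called. In glia 5 of 30 were higher, among them Prima1 at 6.31 ± 0.23, and 10 lower, which is close to the 46.8% called over all genes. Against primer, 14 of 44 passed over all nuclei, 7 in each direction, where 15.8% of all genes were called, with Rgs9 at 0.52 ± 0.06 and Plcb1 at 0.40 ± 0.05 among the higher and Lynx1 at -0.90 ± 0.07, Chat at -0.88 ± 0.24 and Ache at -0.53 ± 0.07 among the lower. Rgs9 and Chat also served as markers of striatal projection and cholinergic nuclei, whose numbers differed between libraries. Of 24 cholinergic nuclei 1, 4, 5 and 4 came from the No_index libraries, and 2, 5 and 3 from the Index libraries, which held more nuclei. The part of the mix of nuclei in these primer changes was not tested. Against storage, 0 of 44 passed (edgeR).

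Likeness to other genes was measured by Pearson's r of log2(CPM + 1) over the means of the 15 groups, which share libraries and were themselves defined by RNA, among 7994 genes with at least 10 CPM on average. Chrm1 was most like Icam5 (r = 0.98), Jph1 (0.92) and Grasp (0.92). Chrm2 was most like Eif2ak3 (0.95), Ptpn23 (0.91) and Gm26782 (0.90), and Chrnb2 most like Dnm1l (0.92), Ext2 (0.90) and Ncs1 (0.87). Chrna4 was most like Usp35 (0.86), Fbxl20 (0.86) and 1700019D03Rik (0.83), Chrna7 most like Hmbox1 (0.84), and Chrm4 most like Drd1 (0.85), a marker that had defined its top group. Chrm3 was most like Dyrk2, with r = 0.78. Among the receptors themselves, Chrna4 and Chrnb2 had r = 0.63, Chrna4 and Chrm2 0.67, and Chrm1 and Chrm2 r = -0.80.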

How the data were processed

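Single-nucleus total RNA of 7 mouse brain libraries was analysed; the human and mouse cell line mixtures of the same series were not used. The deposited tables hold raw UFI counts per gene and nucleus. Per the study's methods, reads were trimmed with Cutadapt, barcodes were chosen with UMI-tools, reads were aligned with STAR in 2-pass mode keeping unique hits, assigned over whole genes with featureCounts and counted with UMI-tools. The submitters' processing notes list the builds GRCh38, GRCm38 and mm10. For the tissue libraries, tool versions and the strand setting of the counting are not given in the sources used here, though the study describes UFI quantification as strand-specific. The methods describe cutoffs on UFIs and genes per cell against low quality and doublets, and no doublet caller was run here. Coordinates and lengths are from GRCm38 (GENCODE annotation), matched by gene symbol.

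Nuclei were assigned to groups by marker scores (score of at least 1.5, margin of at least 0.5, at least 3 markers detected), a rule set after marker scores were seen. Counts were summed per library and group (at least 10 nuclei) and tested with edgeR 4.0.16 (quasi-likelihood test, TMM, low-count filter, Benjamini-Hochberg over all genes tested, threshold 0.05). Storage and primer entered 1 model, and contrasts of nucleus groups had the library as a block, so that groups were compared within libraries. In these contrasts a gene could pass the low-count filter through 1 group alone. SE is the log2 change divided by the root of F. Scripts were tested on simulated data. Alternatives were DESeq2 1.42.0, upper-quartile scaling, no low-count filter, each library left out, Leiden clusters (scanpy 1.11.5), stricter scores, mean UFIs per nucleus, the other factor left out and a replicate block; gene length classes were added after seeing the data. The correlations of same-numbered libraries' deviations were -0.011, 0.048 and -0.039, so the numbers do not pair the libraries. The named genes were the 10 receptors, whatever their result, the 51 cholinergic genes by counts with examples, and the 3 genes most alike in pattern. The members and lists were chosen with earlier results of these data known. Binomial and Poisson limits use 95% and a floor of 3 counts.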

Additional observations from a re-analysis of the deposited data

Results flagged for a closer look

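In 5 of 81 combinations of a receptor gene and a group of nuclei with 4 to 7 libraries, 1 library stood apart from the others by Dixon's criterion, which chance alone meets in about 1 of 20. The No_index_fresh 1 library was the high one in 4 of them. Its Chrm2 level was 92.9 CPM in upper layer nuclei (next highest library 44.3 CPM, n = 6), 434 CPM in subcortical glutamatergic nuclei (next 228 CPM, n = 5) and 215 CPM in OPC (next 96.7 CPM, n = 6). Its Chrm1 level was 97.7 CPM in D2-like striatal nuclei (next 72.1 CPM, n = 7). Over all nuclei of that library Chrm2 was 116 CPM, inside the range of the other libraries, and Chrm2 was lower there than in the other libraries in Pvalb interneurons, at 108 CPM. The fifth was Chrm3 in hippocampal CA nuclei of No_index_frozen 2, with 821 CPM against 1346 CPM in the next lowest library (n = 7), from 12 nuclei and 214 UFIs.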

How the results depend on the processing

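No called change in a receptor reversed under the alternatives run, while changes that had not passed could take either sign. Of the counts reported, mostly of receptors called, 187 values stayed within 1.5 times of the reported count and 17 did not. These values also hold the counts of neighbour pairs past the threshold in the orders, which were 0 in every setting, and a count for shares of nuclei. For storage over all nuclei, reported as 0, DESeq2 gave 1 (Chrm3), no low-count filter 2 (Chrm2 and Chrm3), and leaving out single libraries 0 to 1 (1 without Index_fresh 1). For storage in cortical nuclei DESeq2 and no filter each gave 1 (Chrna7). For storage in striatal nuclei no filter gave 2 (Chrna3 and Chrna7) and left-out libraries 0 to 1 (1 without Index_frozen 1). For primer, Leiden clusters gave 2 in cortical nuclei (Chrna4 and Chrnb2), DESeq2 gave 1 in striatal nuclei (Chrm3), left-out libraries 0 to 3 there, and DESeq2 and no filter each 1 in thalamic nuclei (Chrm3). For glia DESeq2 gave 3 and left-out libraries 3 to 5. The cause was not tested in these cases. Left-out libraries gave 2 to 3 for primer over all nuclei, 3 to 4 for D1-like against D2-like (Chrm2 fell under the low-count filter without Index_frozen 2 or No_index_fresh 2), 4 to 5 for deep against upper layers (Chrm1), and the reported 6, 6, 6 and 5 in the other contrasts of striatal, Lhx6, thalamic and dentate nuclei. Of values of single receptors, 1382 kept their side of the threshold, 25 lost it and 22 gained it.

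The replicate block gave the same counts of receptors as the fit without it, 2 for primer over all nuclei, 2 for primer in striatal nuclei and 0 elsewhere, while over all genes it called 5 in place of 40 for storage and 1731 in place of 3041 for primer over all nuclei. All-gene counts for storage over all nuclei ranged from 0 to 1937 over the alternatives and those for primer from 1731 to 4787. In cortical, striatal and thalamic nuclei they ranged from 0 to 112, 0 to 131 and 0 to 97 for storage. For primer they ranged from 185 to 1126, 428 to 928 and 7 to 228, and for glia from 3892 to 5596. With upper-quartile scaling the glia comparison had an all-gene median of -0.10 and 1936 higher and 2771 lower calls, against 2268 and 2146. The group at the top of the order was the same for 10 of 10 receptors with mean UFIs per nucleus, for 8 with Leiden clusters or without No_index_fresh 1, and for 9 without Index_fresh 1. Levels under about 5 CPM, those of Chrm4 outside the striatum, Chrm5, Chrna3 and Chrna5, rest on few UFIs, and differences among them were mostly not detectable at this depth.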

Other observations

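The 458 nuclei resembling kidney tubule, which entered no comparison, held Chrna4 at 60.9 CPM (exact Poisson interval 53.7 to 68.8, 259 UFIs in 161 nuclei), between the means of layer 6 and subcortical glutamatergic nuclei. Chrnb2, its partner in brain, had 5 UFIs in the same nuclei (1.18 CPM, 0.382 to 2.74). Chrm3 had 75.7 CPM (67.6 to 84.4) and Chrna7 16.2 CPM (12.6 to 20.5). Chrm1, Chrm4 and Chrm5 had 0 UFIs there, which allows up to 0.705 CPM each. These nuclei came from the Index_frozen libraries alone, and the labels name brain as the tissue.

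Cerebellar granule nuclei (207, all but 1 from No_index libraries) had Chrm3 at 457 CPM (436 to 479), Chrm2 at 72.2 CPM, Chrna7 at 67.3 CPM, Chrm1 at 35.2 CPM, Chrnb2 at 30.3 CPM (25.1 to 36.3) and Chrna4 at 19.0 CPM. In microglia (54 nuclei) Chrm3 stood at 601 CPM (553 to 652) and Chrna7 at 94.5 CPM (76.2 to 116). They were pooled over libraries, of which 1 held at least 10 such nuclei. Over whole libraries the mean of Chrm3 was 658 CPM. Neuronal markers were not summed in microglia, and the part of neuronal RNA in these levels was not tested.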
